A study of Mus musculus with 8 samples.

Results

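Cebpb, Gga1 and Alkbh5 are 3 mouse genes that were picked out because their liver signal was lower in untreated Abcb4 knockout mice than in wild-type mice and higher again after 3 days of norUDCA. They are read by 4 array probes: 2 for Cebpb (450590 and 640455), 1 for Gga1 (298479) and 1 for Alkbh5 (651650). The members are thus 3 of the 311 genes, and 4 of the 317 probes, that could be named here. Since they were chosen on the wild-type, untreated knockout and 3-day arrays, the differences among those groups are given as a description, without a test, and the question left to test is what the 4-week arrays show.

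The data are liver total RNA from male FVB/N mice aged 3 months, measured on 8 single-colour Applied Biosystems arrays with chemiluminescent detection, 2 arrays in each of 4 groups. The groups are untreated wild type (WT), untreated Abcb4 knockout (KO), Abcb4 knockout given norUDCA for 3 days, and Abcb4 knockout given norUDCA for 4 weeks. Both treated groups and the KO group therefore share the loss of Abcb4, and no group of wild-type mice given norUDCA was analysed here. Abcb4 (also called Mdr2) carries phospholipid into bile, and mice without it develop a sclerosing cholangitis. NorUDCA is a side-chain-shortened relative of the bile acid ursodeoxycholic acid. The labels used here name no dose, route or construction of the knockout allele, and none of the named probes stands for Abcb4, so the genotype was not checked on the arrays. For the 4-week arrays the file names say 14 days instead. The label was followed, and which length is right remains unknown here.

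Cebpb encodes C/EBP beta, a basic leucine zipper transcription factor that binds DNA as a dimer and that in hepatocytes acts on genes of the acute phase response, of gluconeogenesis and of regeneration. Gga1 encodes a clathrin adaptor of the trans-Golgi network, which is recruited by the small GTPase ARF and sorts mannose 6-phosphate receptors towards endosomes. Alkbh5 encodes a nuclear dioxygenase that removes the N6-methyl mark from adenosine in RNA, the opposite reaction to that of the METTL3 and METTL14 methyltransferase. The genes belong to unrelated families.

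The promoters are shown because the 4 probes moved together over the arrays. These are the 250 bases before each gene's start in RefSeq, build GRCm38.p6, all on the plus strand, at chr2:167688665-167688914 for Cebpb, chr15:78876940-78877189 for Gga1 and chr11:60537433-60537682 for Alkbh5. Capitals mark, on either strand, the half-site of the cyclic AMP response element (TGACG), the GC box (GGGCGG), the CCAAT box (CCAAT) and an ETS site (CCGGAA).

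Cebpb promoter: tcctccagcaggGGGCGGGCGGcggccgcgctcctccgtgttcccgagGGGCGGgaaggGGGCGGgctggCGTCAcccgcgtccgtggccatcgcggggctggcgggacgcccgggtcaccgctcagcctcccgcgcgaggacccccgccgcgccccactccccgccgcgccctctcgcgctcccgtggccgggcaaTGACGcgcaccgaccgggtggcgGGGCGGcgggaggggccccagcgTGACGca

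Gga1 promoter: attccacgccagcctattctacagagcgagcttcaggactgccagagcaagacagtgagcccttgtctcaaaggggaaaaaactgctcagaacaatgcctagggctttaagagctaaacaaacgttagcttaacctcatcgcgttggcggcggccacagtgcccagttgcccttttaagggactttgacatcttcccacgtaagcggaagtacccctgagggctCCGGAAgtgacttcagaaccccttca

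Alkbh5 promoter: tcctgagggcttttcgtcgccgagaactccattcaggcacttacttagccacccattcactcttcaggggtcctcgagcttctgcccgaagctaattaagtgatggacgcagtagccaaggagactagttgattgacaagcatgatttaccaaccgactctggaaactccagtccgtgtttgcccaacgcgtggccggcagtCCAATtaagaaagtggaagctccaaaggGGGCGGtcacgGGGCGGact

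The Cebpb window held 5 GC boxes, of which the pair that begins at bases -238 and -234 overlaps, and 3 TGACG half-sites that begin at bases -180, -53 and -7 from the start. Its GC content was 81.6%, above that of 99.3% of the 32851 promoters of the same length. The Gga1 window had a GC content of 52.4%, equal to the median promoter, and held 1 ETS site at base -26. The Alkbh5 window had a GC content of 54.0% and held 2 GC boxes at bases -20 and -9 and 1 CCAAT box at base -48. Such matches are common: 17.8% of all promoters held TGACG, 32.7% GGGCGG, 33.8% CCAAT and 12% CCGGAA. A loose form of the site that C/EBP proteins bind (TTNNGNAA, either strand) occurred in 36.8% of promoters. It was present in the Alkbh5 window, at bases -71 and -44, and was not present in the Cebpb or Gga1 window. The E-box CACGTG (6.0% of promoters) and the nuclear receptor half-site AGGTCA (14.0%) were in none of the 3 windows. No motif among the 7 searched was shared by all 3 windows, and these letter matches are a description of sequence, not measured binding.

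The WT arrays stood apart from the other arrays in brightness, which touches each comparison with WT. Between 33.3% and 47.9% of the 33012 gene probes reached a signal over noise of 3 on an array, here called detected, and the lowest share was that of WT replicate 1. The positive-control spots had a median signal of 1691 and 2062 on the WT arrays, against 6104 to 7913 on the 6 knockout arrays. The upper quartile of the gene probes' signal was 396.8 and 643.8 on the WT arrays and between 945.3 and 1512 on the others. Levels below are log2 signals after quantile normalization, which gives all arrays the same distribution of values. How far each result depends on that step is given after the results. All 4 probes of Cebpb, Gga1 and Alkbh5 were detected on all 8 arrays and none carried a flag that removed it, with signal over noise from 7.51, for Gga1 on KO replicate 2, to 135.07, for Cebpb probe 450590 on 4-week replicate 2. Each probe was compared only with itself, since levels of different probes are not comparable on these arrays.

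Cebpb was lower in KO liver than in WT liver, near the WT level after 3 days of norUDCA, and in between after 4 weeks. Probe 450590 read 15.52 and 16.20 on the WT arrays, 14.54 on both KO arrays, 16.12 and 15.86 on the 3-day arrays, and 14.99 and 15.05 on the 4-week arrays. The 3-day arrays lay between the WT arrays, whereas both 4-week arrays lay above the KO arrays and below every WT and 3-day array. The second Cebpb probe, 640455, read 13.02 and 13.60 in WT, 11.89 and 11.95 in KO, 13.59 and 13.37 at 3 days, and 12.69 and 12.58 at 4 weeks. The order of the groups was the same as for the first probe. Both probes carry the same RefSeq transcript, so they are 2 readings of 1 RNA in the same samples rather than independent evidence.

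In group means, Cebpb was 15.86 ± 0.48 in WT, 14.54 ± 0.00 in KO, 15.99 ± 0.18 at 3 days and 15.02 ± 0.04 at 4 weeks (probe 450590, SD, n = 2 arrays). KO stood 1.32 ± 0.27 (SE) log2 units below WT, a 2.49-fold difference, and the 3-day mean stood 1.45 ± 0.27 above KO, 2.74-fold. By probe 640455 the means were 13.31 ± 0.42, 11.92 ± 0.04, 13.48 ± 0.16 and 12.64 ± 0.08 in the same order. KO was then 2.62-fold below WT and the 3-day group 2.95-fold above KO. The spread of Cebpb was widest in WT by both probes, where replicate 1 was the lower array. In bulk liver RNA, fewer cells of a type and less RNA per cell cannot be told apart, for these genes as for the others.

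Gga1 was also lower in KO, near the WT level at 3 days and in between at 4 weeks. Its probe read 10.85 and 10.72 in WT, 9.43 and 9.70 in KO, 10.94 and 10.61 at 3 days, and 10.04 and 9.87 at 4 weeks. The WT arrays lay within the range of the 3-day arrays, and the 4-week arrays lay above both KO arrays and below all WT and 3-day arrays. The means were 10.78 ± 0.09, 9.56 ± 0.19, 10.77 ± 0.24 and 9.96 ± 0.13 (SD, n = 2). Gga1 in KO was 2.32-fold below WT (log2 difference -1.22 ± 0.22, SE), and at 3 days it was 2.31-fold above KO (1.21 ± 0.22).

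Alkbh5 differed less than the other 2 genes between KO and WT and between 3 days and KO. Its probe read 12.42 and 12.74 in WT, 11.97 and 12.02 in KO, 12.87 and 12.61 at 3 days, and 12.30 and 12.35 at 4 weeks. The 4-week arrays lay just under the lower WT array, WT replicate 1, and the 3-day arrays overlapped the WT arrays. The means were 12.58 ± 0.23, 11.99 ± 0.04, 12.74 ± 0.18 and 12.33 ± 0.04 (SD, n = 2). KO was 1.5-fold below WT (-0.59 ± 0.21, SE) and the 3-day group 1.68-fold above KO (0.75 ± 0.21).

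**Figure D1:**
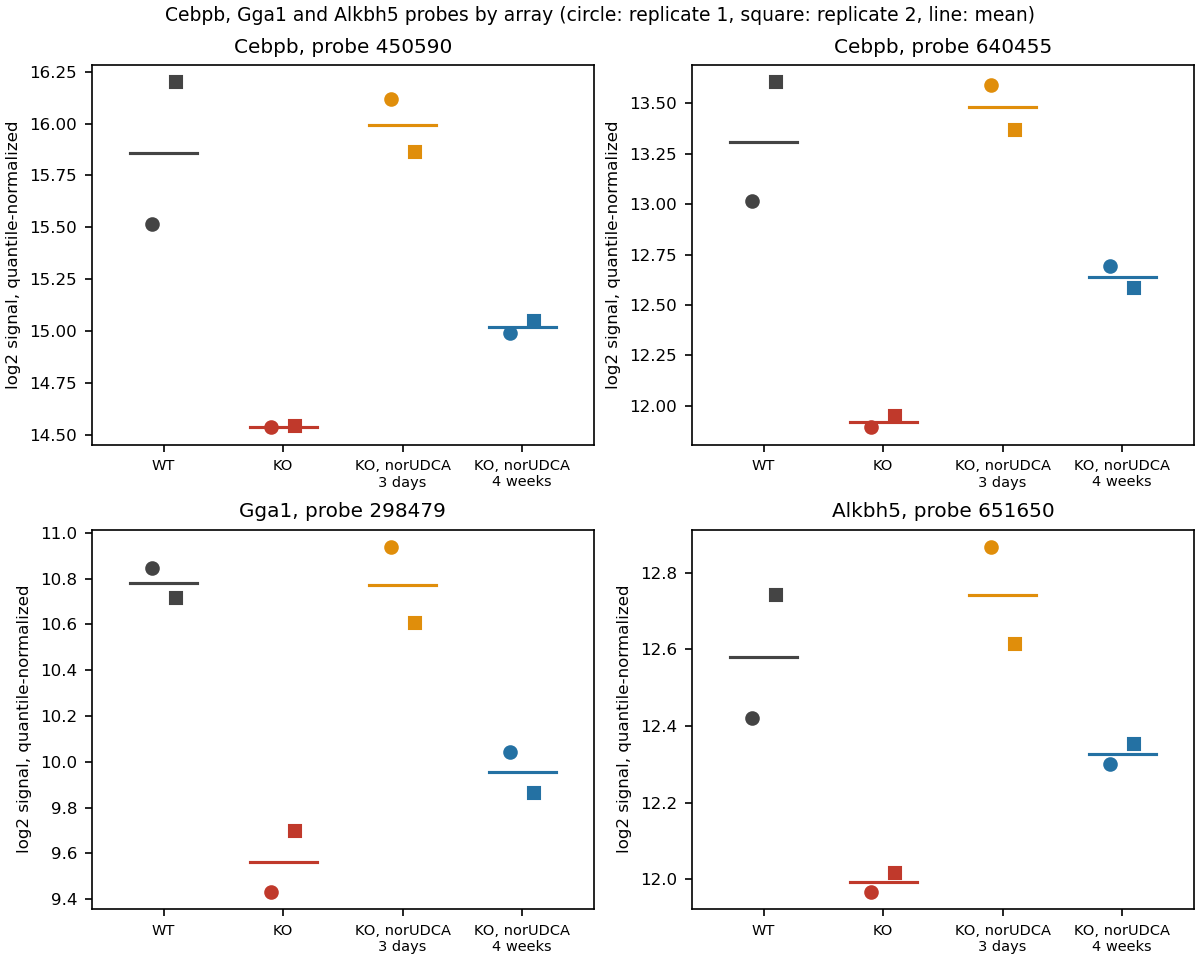
Quantile-normalized log2 signal (vertical axis, a separate range per panel) of the 4 probes on each of the 8 arrays, by group, with circles for replicate 1, squares for replicate 2 and lines for the group means. In each panel the KO arrays are lowest, the 3-day arrays overlap the WT arrays, and the 4-week arrays lie between the KO arrays and the WT and 3-day arrays.

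Those levels are what the genes were chosen for, so their agreement across probes carries no weight of its own. Among all 16728 tested probes, 1.13% differed between KO and WT at an adjusted p under 0.05 in limma, 0.233% between 3 days and KO, and 5.78% between 3 days and WT. Counted by arrays, both KO arrays were below both WT arrays in 20.4% of tested probes, both 3-day arrays were above both KO arrays in 22.2%, and 6.92% (1158 probes) did both. The 4 probes of Cebpb, Gga1 and Alkbh5 are among those 1158, as their choice requires. With 2 arrays against 2, an exact permutation test cannot give a two-sided p below 0.333.

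The first question was whether the 3 genes had returned to the WT level after 3 days. The 3-day mean differed from the WT mean by 0.14 for Cebpb probe 450590, 0.17 for probe 640455, -0.01 for Gga1 and 0.16 for Alkbh5, and the arrays of the 2 groups overlapped for all 4 probes. The SE of these differences was 0.27, 0.25, 0.22 and 0.21. Their 95% intervals, given as a description, were -0.53 to 0.80, -0.44 to 0.78, -0.54 to 0.525 and -0.35 to 0.67. Intervals this wide cannot show that the 3-day and WT levels are equal. Without WT replicate 1 the differences were -0.21, -0.12, 0.06 and 0, so their sign rests on single arrays. Expressed as a share of the distance from KO to WT on the log2 scale, the 3-day mean had regained 110.3% and 112.2% for the Cebpb probes, 99.3% for Gga1 and 127.3% for Alkbh5. These shares use the same arrays as the choice of the genes.

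The second question was whether that level was kept at 4 weeks. The share regained at 4 weeks was 36.5% and 51.4% for the Cebpb probes, 32.1% for Gga1 and 57% for Alkbh5. These shares depend on the level given to WT: with the arrays scaled to the same median they were 74.9%, 101.3%, 82.5% and 705.8%, the last where KO and WT differ by only -0.07. Against the 3-day arrays, the 4-week difference was -0.97 for Cebpb probe 450590 (95% interval -1.64 to -0.31, adjusted p = 0.44 in limma) and -0.84 for probe 640455 (-1.46 to -0.23, adjusted p = 0.44). It was -0.82 for Gga1 (-1.35 to -0.28, adjusted p = 0.42) and -0.41 for Alkbh5 (-0.92 to 0.09, adjusted p = 0.63). Both 4-week arrays were below both 3-day arrays for all 4 probes, an arrangement found in 20.7% of all tested probes. None of the 4 passed an adjusted p of 0.05. In that contrast 0% of the tested probes did, and 3 of the 4 probes, against 1499 of all 16728, had an unadjusted p under 0.05. These were Gga1 and the 2 Cebpb probes, which read 1 RNA, and a high 3-day group was part of the choice.

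The 4-week arrays were also set against the KO arrays. Cebpb was higher at 4 weeks by 0.48 with probe 450590 (95% interval -0.18 to 1.15, adjusted p = 0.68 in limma) and by 0.71 with probe 640455 (0.10 to 1.33, adjusted p = 0.50). Gga1 was higher by 0.39 (-0.14 to 0.93, adjusted p = 0.68) and Alkbh5 by 0.34 (-0.17 to 0.84, adjusted p = 0.72). None passed the threshold, beside 0.0478% of all tested probes (8 probes). At an unadjusted p under 0.05 there was 1 of the 4, against 1464 of all 16728 probes. Both 4-week arrays lay above both KO arrays for all 4 probes, as they did in 21% of all tested probes. Among the 1158 probes with the same pattern up to 3 days, 738 (63.7%) had both 4-week arrays above both KO arrays and 588 (50.8%) had both 4-week arrays below both 3-day arrays.

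Against WT, Cebpb at 4 weeks differed by -0.84 with probe 450590 (95% interval -1.50 to -0.17, adjusted p = 0.16 in limma) and by -0.68 with probe 640455 (-1.29 to -0.06, adjusted p = 0.20). Gga1 differed by -0.83 (-1.36 to -0.29, adjusted p = 0.11) and Alkbh5 by -0.25 (-0.76 to 0.25, adjusted p = 0.54). Again none passed, while 2.27% of all tested probes (379) did. At an unadjusted p under 0.05 there were 3 of the 4, against 3553 of all 16728 probes. Cebpb 450590 passed with an intensity trend in the fit (adjusted p = 0.045) and Gga1 among probes detected on all 8 arrays (adjusted p = 0.04), over ranges of 0.045 to 0.85 and 0.04 to 0.86 across the alternatives, both lower than WT. With unscaled signal all 4 differences were above 0, and Alkbh5 passed as higher than WT (1.22, adjusted p = 0.049 in limma, range 0.049 to 0.86). That setting called 10505 of all 16728 tested probes, and their median difference was 1.42, above that of Alkbh5. The intensity trend and the filter to probes detected on all 8 arrays also called more of all probes than the main fit (counts at the end). With the same median, Cebpb 640455 (0.011) and Alkbh5 (0.42) were also above 0, beside a median of 0.61 for all tested probes. Both 4-week arrays were below both WT arrays for all 4 probes, an order found in 22.1% of tested probes. Each of the 3 contrasts shares 1 group with the choice of the genes: a low KO group, a high WT group and a high 3-day group were what the genes were picked for. These contrasts also share the 4-week arrays with each other. The 4-week position between KO and the other groups is therefore only in part independent of the choice, and no contrast established a difference from KO, from WT or from 3 days after adjustment.

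**Figure D2:**
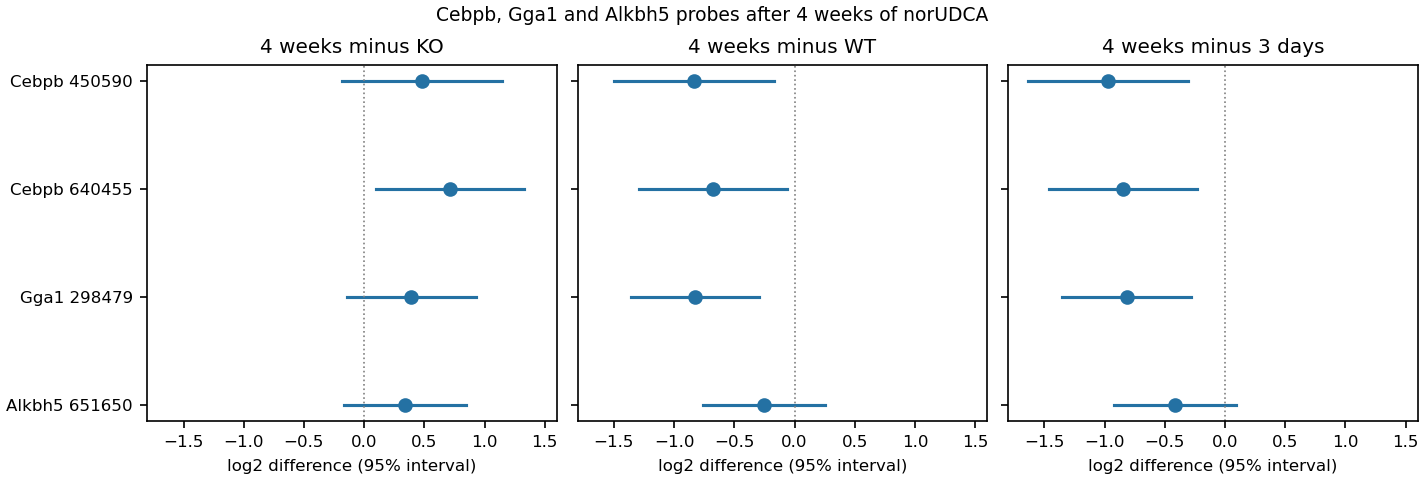
Log2 difference (horizontal axis) of the 4-week group from the KO group, the WT group and the 3-day group for each probe, with points for the estimate and bars for the 95% interval from limma, unadjusted for the number of probes. The estimates are above 0 against KO (0.34 to 0.71) and below 0 against WT (-0.84 to -0.25) and 3 days (-0.97 to -0.41).

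Quantile normalization sets the WT arrays, which were dimmer, to the same distribution as the rest. On the deposited scale, with no scaling between arrays, the signal of Cebpb probe 450590 was 19135 and 56547 on the WT arrays, 31637 and 24065 on the KO arrays, 82353 and 59308 on the 3-day arrays, and 50152 and 48268 on the 4-week arrays. The WT arrays then spanned the KO arrays, and the 3-day arrays were the brightest. The deposited assay-normalized signal divides each signal by a factor that differed between arrays and between probe 450590 and the other 3 probes. For probe 450590 that signal was 229.85 and 642.67 in WT against 248.14 and 225.44 in KO, so that WT replicate 1 lay at the KO level. On WT replicate 1 that factor was 83.3 for probe 450590 and 63.7 for the other 3 probes. It differed between probe 450590 and Cebpb probe 640455 on other arrays too, for example 106.7 against 124.2 on KO replicate 2, 91.9 against 111.4 on 3-day replicate 2 and 136.9 against 126.9 on 4-week replicate 2.

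Across 6 ways of scaling, the 3-day level stayed above that in KO, a contrast on which the genes were chosen. The median 3 days minus KO difference of all tested probes lay between -0.19 and 0.03 under them, so the scaling could move it little. Both 3-day arrays lay above both KO arrays for all 4 probes under all 6, and so did both 4-week arrays. Both KO arrays were below both WT arrays for 4 of 4 probes under 3 of the scalings: quantile normalization of the signal, quantile normalization of the assay-normalized signal, and cyclic loess. This held for 2 of 4 probes, Cebpb 640455 and Gga1, when the arrays were given the same median and when the assay-normalized signal was used as deposited. It held for 0 of 4 with the signal as deposited, where KO minus WT was -0.25 and -0.24 for the Cebpb probes, -0.04 for Gga1 and 0.56 for Alkbh5. The median KO minus WT difference of all tested probes was 0.09 after quantile normalization of the signal and of the assay-normalized signal, and 0.02 after cyclic loess. With the same median, with the assay-normalized signal as deposited and with the signal as deposited, that median was 0.48, 0.50 and 1.11, so relative to the bulk of probes the 4 probes were lower in KO under each scaling. The genes were chosen for that position on these same arrays, so it carries no weight of its own.

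The return to the WT level at 3 days was likewise tied to the scaling. The 3-day and WT arrays overlapped for all 4 probes under both quantile settings and cyclic loess. With the same median, Gga1 and Alkbh5 on the 3-day arrays were above both WT arrays, and with the assay-normalized signal as deposited, Cebpb 450590 and Gga1 were. With the signal as deposited, all 4 probes were above WT at 3 days. At 4 weeks, the order below WT held for 4 of 4 probes under the same 3 settings and for none under the others. With the signal as deposited, Cebpb 640455, Gga1 and Alkbh5 were above both WT arrays. The bulk of probes also stood above WT in those settings. At 3 days the median difference from WT of all tested probes was 0.5 with the same median. It was 0.48 with the assay-normalized signal as deposited and 0.91 with the signal as deposited. At 4 weeks these medians were 0.61, 0.65 and 1.42. The share of all tested probes in each order was counted only under quantile normalization of the signal. The 4-week arrays were below the 3-day arrays for 4 of 4 probes under 4 scalings, for all but Alkbh5 with the assay-normalized signal as deposited, and for the 2 Cebpb probes with the signal as deposited. How much of each difference from WT belongs to genotype and how much to the brightness of the WT arrays cannot be told apart.

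**Figure D3:**
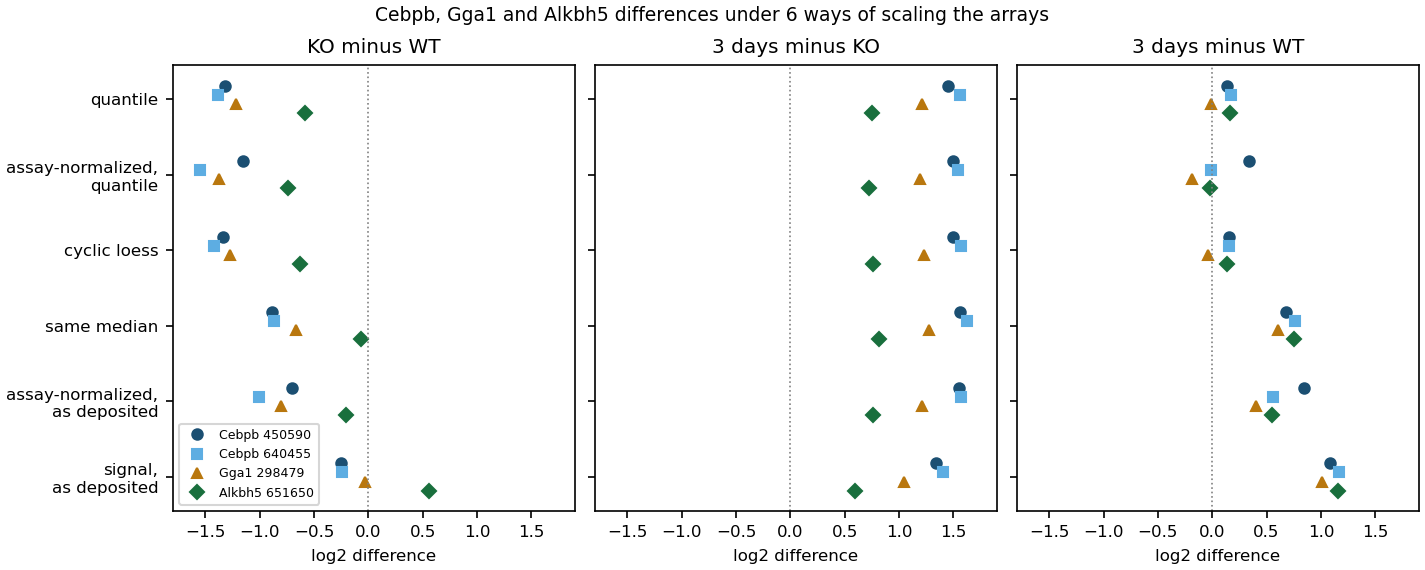
Log2 differences (horizontal axis) of KO from WT, 3 days from KO and 3 days from WT for the 4 probes (symbols), under 6 ways of scaling the arrays (rows). The 3-day difference from KO stays between 0.60 and 1.63 in every row, while both differences from WT shift to the right in the lower 3 rows.

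Over the 8 arrays the 4 probes ran closely together, as genes chosen for 1 pattern must. The Pearson correlation of log2 signal was 0.988 between the 2 Cebpb probes. Cebpb 450590 correlated with Alkbh5 at 0.976 and with Gga1 at 0.926, and Gga1 with Alkbh5 at 0.899. Among all other tested probes, a correlation of 0.9 or more was reached by 80 of 16724 (0.478%) with Cebpb 450590, by 82 (0.49%) with Gga1 and by 101 (0.604%) with Alkbh5. These values share arrays and scaling and are given without a p.

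Among those probes, only Fxr2, which reached the cut with Alkbh5, has a name here. Of 159 named probes of other genes, the 5 most like Cebpb 450590 were Fxr2 (an RNA-binding relative of the fragile X protein, r = 0.892), Mkrn3 (a ubiquitin ligase, 0.806), Zfp60 (a zinc finger protein, 0.731), Med9 (a Mediator subunit, 0.687) and Zkscan17 (a zinc finger protein, 0.678). For Gga1 the same 5 names led, with Fxr2 at 0.762, Med9 at 0.698, Zkscan17 at 0.679, Mkrn3 at 0.657 and Zfp60 at 0.655. For Alkbh5 they were Fxr2 at 0.925, Mkrn3 at 0.806, Zkscan17 at 0.627, Zfp60 at 0.588 and Unkl at 0.573. Fxr2 was dim: it was detected on 4 of the 8 arrays, both 3-day arrays, WT replicate 2 and 4-week replicate 2. Zfp60 was dimmer still, detected only on WT replicate 2 and 3-day replicate 2, so its correlations rest mostly on values not above background. The other 4 named here were detected on all 8 arrays. Of these, Med9 ran only from 10.18 to 10.57, and Mkrn3 read 9.37 on both WT replicate 1 and KO replicate 1. Zkscan17 and Unkl were lower on both KO arrays than on both WT arrays.

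The pathways around the 3 genes could be followed only thinly. Of 261 genes on 16 lists (C/EBP partners, inducers and targets, trans-Golgi sorting, RNA methylation, bile acid handling and markers of 8 cell types), 4 had a named probe, and all 4 were tested. No other member of the GGA family or trans-Golgi list (38 genes) and none of the AlkB and RNA methylation list (30 genes) had one. Among the 25 genes of the C/EBP and leucine zipper list there was Jun, among the 17 of gluconeogenesis and amino acid catabolism G6pc, among the 8 cholangiocyte markers Krt23 and among the 4 erythroid markers Hba-a1. In limma, 1 of the 4 (Krt23, higher) passed in KO against WT and in 3 days against WT, beside the 1.13% and 5.78% of all probes given above, and 0 of 4 passed in each of the other 4 contrasts. At an unadjusted p under 0.05 there were 2 of 4 in KO against WT (3314 of all 16728 probes), 1 in 3 days against KO (2685) and 4 in 3 days against WT (4457). There were 3 of 4 in 4 weeks against KO (1464), 2 in 4 weeks against WT (3553) and 2 in 4 weeks against 3 days (1499).

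Jun, a leucine zipper partner of the AP-1 factors that can also dimerize with C/EBP proteins, did not follow Cebpb. It read 11.70 and 11.07 in WT, 12.94 and 12.48 in KO, 12.93 and 12.63 at 3 days, and 11.16 and 11.23 at 4 weeks. Jun was thus high on the KO arrays, where Cebpb was low, and still high at 3 days, where Cebpb was near WT. KO minus WT was 1.32 ± 0.29 (SE, adjusted p = 0.095 in limma), 3 days minus KO 0.07 (adjusted p = 0.94), 4 weeks minus KO -1.52 (adjusted p = 0.23) and 4 weeks minus WT -0.19 (adjusted p = 0.75). KO minus WT passed under 4 of 20 alternatives (adjusted p = 0.03 among probes detected on all 8 arrays, 0.019 with an intensity trend, 0.0066 with unscaled signal and 0.036 with assay-normalized signal as deposited), and 4 weeks minus KO passed with an intensity trend (0.026). KO minus WT for Jun was 2.48 unscaled and 2.03 assay-normalized as deposited, beside medians of 1.11 and 0.50 for all tested probes. The 4-week difference from WT was above 0 with the same median (0.51) and on both deposited scales (0.60 and 1.31). The medians of all tested probes were higher there, at 0.61, 0.65 and 1.42. The 3 days minus KO difference was -0.08 with the signal as deposited, beside a median of -0.19.

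G6pc, the catalytic subunit of glucose 6-phosphatase and a gluconeogenic gene on which C/EBP proteins act, read 16.15 and 15.76 in WT, 15.50 and 15.35 in KO, 14.69 and 13.93 at 3 days, and 14.59 and 13.94 at 4 weeks. The treated arrays were below both KO arrays at either time, the opposite side from Cebpb. The differences were -1.12 ± 0.36 at 3 days (SE, adjusted p = 0.23 in limma) and -1.16 ± 0.36 at 4 weeks (adjusted p = 0.45), so neither passed the threshold.

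Each of the other cell types was followed by at most 1 marker. Krt23, a keratin of cholangiocytes, was not detected on either WT array, read 10.53 and 11.02 in KO, 10.23 and 8.67 at 3 days, and 7.77 and 7.29 at 4 weeks (KO against WT, adjusted p = 0.035 in limma). That call was lost under 9 of 19 alternatives, among them cyclic loess (0.088), a replicate block (0.072) and leaving out WT replicate 1, either KO array or either 4-week array. The call at 3 days against WT (adjusted p = 0.038) was lost under 12 of 19, including each of the 8 arrays left out in turn. Krt23 was highest in the group where Cebpb, Gga1 and Alkbh5 were lowest, but it was lower at 4 weeks than at 3 days, as these 3 genes were. The erythroid marker Hba-a1 read 19.04 and 16.17 in WT, 15.93 and 15.63 in KO, 13.63 and 14.24 at 3 days, and 15.43 at 4 weeks on both arrays. It passed the threshold in none of the 6 contrasts (adjusted p from 0.066 to 0.95), and its WT arrays differed widely. WT replicate 1, the array on which Hba-a1 was highest, was the lower WT array for Cebpb and Alkbh5 and the higher one for Gga1. The part of these cells in the differences was not tested. None of the 8 hepatocyte markers had a named probe, so the labelled tissue was not checked against them.

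**Figure D4:**
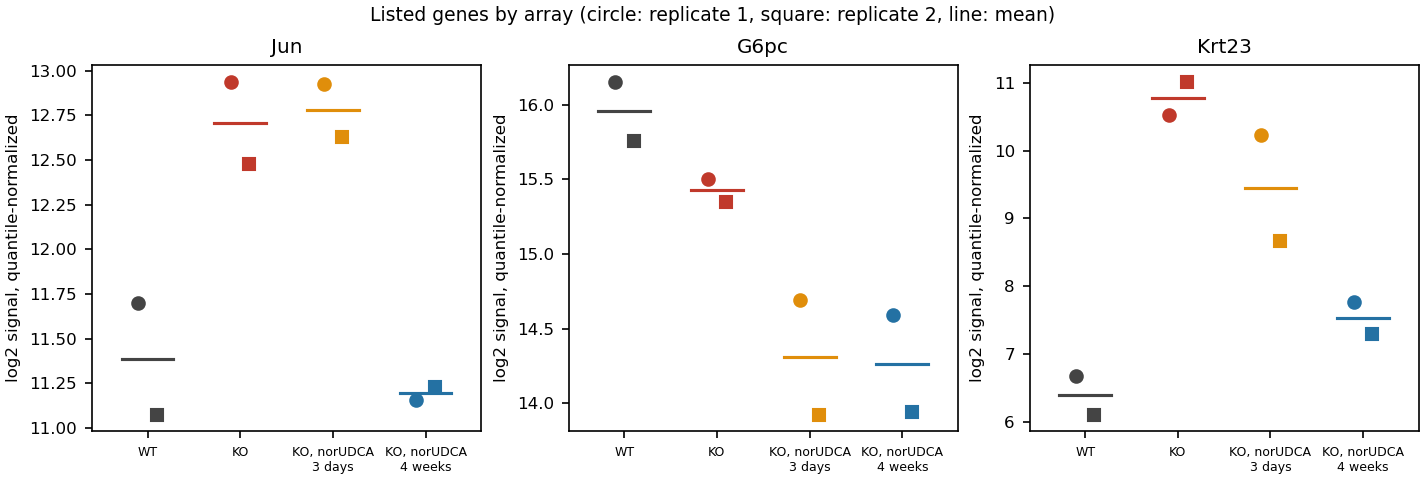
Quantile-normalized log2 signal (vertical axis, a separate range per panel) of Jun, G6pc and Krt23 on each array, by group, with circles for replicate 1, squares for replicate 2 and lines for the means. Jun is high in KO and at 3 days, G6pc is below the KO arrays in both treated groups, and Krt23, not detected on the WT arrays, is highest in KO.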

How the data were processed

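Per the labels, snap-frozen liver was extracted with Trizol and oligo(dT)-primed, digoxigenin-labelled cDNA was hybridised to 8 arrays, 2 per group. Per the file headers, each deposited file gives a signal and an assay-normalized signal, both intensity values on a linear scale, a signal over noise, used as a deposited score, and other quality codes (flags). Blank spots had a median signal of 0, while every gene probe had a signal above 0. Whether background had been removed before deposit was therefore not settled. The deposited series table equalled the assay-normalized intensity within 0.06 for 100% of values, with no centring and column medians from 1.07 to 1.60. The image software is not given in the sources used here, nor is its version.

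Of 33012 gene probes, the 4153 whose flag reached 5000 on any of the arrays were dropped. The log2 signals of the remaining 28859 were quantile-normalized. The 16728 probes detected (signal over noise from 3 upwards) on 2 arrays or more were fitted in limma 3.58.1 (lmFit, contrasts.fit, eBayes; R 4.3.3), with 4 groups sharing 1 spread (4 residual and 1.96 prior degrees of freedom) and Benjamini-Hochberg adjustment over all tested probes, at a threshold of 0.05. The script was tested on simulated data. Intervals are 95%. The 2 arrays per group limit the precision. The labels do not tell whether replicates came from separate animals, and p-values then reflect only the spread among these samples, part of which may be technical. No slide or scan date was given.

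Probes were named through their RefSeq accession in a table of GRCm38.p6: 317 probes (311 by accession, 6 by synonym) of 311 genes. Promoter sequences are RefSeq's, and all 3 genes matched. Named are the probes of Cebpb, Gga1 and Alkbh5, listed genes with a tested probe, and, for Cebpb probe 450590, Gga1 and Alkbh5, the 5 named probes of highest correlation. The genes and lists were chosen with earlier results of these data known. The alternatives were other scalings, filters, fits and each array left out. The signal and the assay-normalized signal without scaling, and the fit without both WT arrays, were added after seeing the data.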

Additional observations from a re-analysis of the deposited data

Results flagged for a closer look

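The positive-control spots, which are not among the gene probes compared, were brighter on the knockout arrays than on the WT arrays: the lowest median of any knockout array, treated or not, was 2.96 times the higher of the WT medians. Its part in the differences of Cebpb, Gga1 and Alkbh5 from WT was not tested. Groups of 2 arrays are too small for a test of single arrays that stand apart.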

How the results depend on the processing

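The 3-day difference from KO, on which the genes were chosen, kept its direction under all 21 alternatives for each of the 4 probes. It ran from 1.33 to 1.58 and 1.41 to 1.67 for Cebpb 450590 and 640455, 1.05 to 1.38 for Gga1 and 0.60 (unscaled signal) to 0.87 for Alkbh5. The 4-week difference from KO was above 0 under all 21, with adjusted p from 0.43 to 1, 0.20 to 0.96, 0.43 to 1 and 0.47 to 1. The 4-week difference from 3 days was below 0 under all, except for Alkbh5 with unscaled signal (0.067), with adjusted p from 0.11 to 1, 0.14 to 1, 0.13 to 1 and 0.36 to 1. Values below run in the order Cebpb 450590, Cebpb 640455, Gga1, Alkbh5. KO minus WT was -0.89, -0.87, -0.67 and -0.07 with the same median, -0.25, -0.24, -0.035 and 0.56 with unscaled signal, and -0.70, -1.01, -0.81 and -0.21 with assay-normalized signal as deposited. For Alkbh5 it was -0.74 with that signal quantile-normalized. Leaving out 1 array gave -1.66 to -0.97, -1.68 to -1.09, -1.35 to -1.08 and -0.75 to -0.43. The ends of the ranges for Cebpb and Alkbh5 came from leaving out 1 WT array. For 3 days minus WT the values were 0.68, 0.76, 0.61 and 0.75 (same median), 1.09, 1.17, 1.01 and 1.16 (unscaled), and 0.85, 0.56, 0.41 and 0.55 (assay-normalized as deposited). Quantile-normalized assay-normalized signal gave -0.01 for Cebpb 640455, -0.19 for Gga1 and -0.02 for Alkbh5, and leaving out 1 array -0.21 to 0.47, -0.12 to 0.46, -0.18 to 0.16 and 0 to 0.32. Leaving out WT replicate 1 turned this difference for Cebpb and for Gga1 (to -0.21, -0.12 and 0.06), and leaving out 3-day replicate 2 turned it for Gga1 (0.16). The 4-week difference from WT was 0.58, 0.81, 0.69 and 1.22 with unscaled signal, 0.011 (Cebpb 640455) and 0.42 (Alkbh5) with the same median and 0.40 (Alkbh5) with assay-normalized signal as deposited. It passed the threshold, lower than WT, for Cebpb 450590 (-0.84) with an intensity trend (adjusted p = 0.045) and for Gga1 (-0.83) among probes detected on all 8 arrays (adjusted p = 0.04), and, higher than WT, for Alkbh5 with unscaled signal (adjusted p = 0.049). Unscaled signal called 10505 of all tested probes in that contrast. The adjusted p of the 4-week difference from WT ran from 0.045 to 0.85, 0.074 to 0.99, 0.04 to 0.86 and 0.049 to 0.86. The share regained at 3 days was 176.8%, 187%, 191% and 1177% with the same median, 528.7%, 585.3%, 2976% and -106.1% with unscaled signal and 221%, 155%, 150.3% and 361.7% with assay-normalized signal as deposited (97.3% for Alkbh5 after quantile normalization). At 4 weeks it was 74.9%, 101.3%, 82.5% and 705.8%, then 329.1%, 439%, 2046% and -118.1%, then 81%, 98.9%, 82.8% and 290.4%. Such shares have little meaning where KO and WT nearly coincide. With 1 array left out they ran from 87.5% to 148.8%, 92.7% to 142.2%, 85.5% to 113.1% and 100% to 174.8% at 3 days, and from 29.1% to 49.3%, 42.5% to 65.1%, 23.9% to 39.4% and 44.5% to 78.6% at 4 weeks. Jun at 3 days against KO was -0.075 unscaled and -0.16 to 0.30 with 1 array left out. Jun at 4 weeks against WT was 0.51 (same median), 1.31 (unscaled) and 0.60 (assay-normalized as deposited), and -0.50 to 0.12 with 1 array left out. Under those scalings, in that order, the medians of all tested probes were 0.61, 1.42 and 0.65. Krt23 in KO against WT lost the threshold under 9 of 19 alternatives (adjusted p from 0.00048 to 0.19) and at 3 days against WT under 12 of 19 (0.0029 to 0.14).

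Of all tested probes, those called at 4 weeks against KO were 8, and 43 (same median), 2 (assay-normalized, quantile), 26 (offset of 50), 0 (no filter on dim probes), 59 (detected on all 8 arrays), 118 (intensity trend), 3 (only the 2 groups), 56 (unscaled), 17 (assay-normalized as deposited) and 0 to 13 (1 array left out). Against WT they were 379, and 982 (same median), 214 (cyclic loess), 40 (no filter), 801 (all 8 arrays), 1248 (trend), 0 (only the 2 groups), 10505 (unscaled), 1322 (assay-normalized as deposited) and 0 to 1272 (1 array left out). The count was 0 without either 4-week array and 1272 without WT replicate 2. Against 3 days they were 0, and 11 (same median), 16 (all 8 arrays), 47 (trend), 21 (unscaled), 1 (assay-normalized as deposited) and 0 (1 array left out). Of the 4 listed genes, 0 were called in each, against KO 1 (same median), 2 (trend) and 1 (unscaled), against WT 1 (all 8 arrays), 1 (trend), 2 (unscaled) and 0 to 1 (1 array left out), and against 3 days 1 (trend). The cause of these changes was not tested.

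Over all tested probes, same-numbered deviations correlated between -0.04 and 0.03, which gave no sign of pairing by replicate number. Such correlations cannot show that the samples were unpaired. A fit with the replicate block moved the calls to 0 against KO and 68 against WT, and Cebpb 450590, for example, had adjusted p = 0.72 against KO and 0.21 against WT.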
